A study of Bos taurus with 14 samples.

Results

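The solute carriers are the membrane proteins, numbered by SLC family, that move amino acids, sugars, ions, metals and metabolites across the plasma membrane and the membranes of organelles. The members were taken from the gene names on 1 bovine Agilent array design, as every symbol made of SLC, a family number, letters and a member number, with the symbol in the probe's description used where the name was an accession or a LOC number. This gave 94 genes of 31 families, read by 95 of the 15208 non-control probes, and the brighter probe was kept where a gene had more than 1. Of the symbols, 72 came from the gene name and 22 from the description, and 29 genes are described only as similar to a named gene. One member, SLC9A3R1, is a scaffold protein named after a carrier and carries nothing itself.

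The 14 arrays, each hybridised with Cy3-labelled RNA of 1 sample, held 4 samples of Bos taurus granulocytes incubated for 2 h with interferon tau (IFNT) at a labelled dose of 1 mg/mL, and 4 kept for the same 2 h in phosphate-buffered saline (PBS). They also held 3 samples of bovine endometrial stromal cells (BES) given the same IFNT treatment and 3 BES samples given PBS. IFNT is the type I interferon by which the ruminant conceptus signals pregnancy, and it reaches both uterine cells and circulating leukocytes. No genotype, breed, age or separate animal or culture is given for any replicate, so errors and p-values measure the spread between these samples, which may be technical.

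Transport by these proteins sets which nutrients a cell can take up and which metabolites its mitochondria can exchange. Granulocytes, short-lived phagocytes that rely largely on glycolysis, are known for high glucose uptake through SLC2A1 and SLC2A3 and for the phagosomal metal transporter SLC11A1. The endometrium, of which BES are the stromal cells, supplies the conceptus with secreted and transported nutrients. In activated leukocytes the heavy chain SLC3A2 (CD98) and the light chain SLC7A5 (LAT1) form 1 exchanger that brings leucine and other large neutral amino acids into the cell.

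The array reads each gene by 1 designed probe of 60 bases. The first 30 bases are shown for the members that the treatment results turn on and for the 3 ADP/ATP carriers of the inner mitochondrial membrane, SLC25A4, SLC25A5 and SLC25A6, whose proteins are close relatives. No base is marked, since none is singled out.
SLC22A5: tgtaaaattgtcttctcttttctgaatatg
SLC3A2: ttgcagaggaacccccaaatagggtgtttt
SLC7A5: gcttagctgctttgggatggggagttttgt
SLC6A9: tctgtagcaataatggtgtgcctcccaccc
SLC25A4: cacagccaatagaagataacttatcatact
SLC25A5: aataatattcacatgaccagttttctctta
SLC25A6: gcacagccgaatacgcgcgattatgtttct
The longest run of bases that the full probes of these ADP/ATP carriers have in common was 5 for SLC25A4 and SLC25A5, and 7 for SLC25A6 with either of the others. Among all members, the SLC15A1 probe was the only one of a named carrier to share 20 or more bases with a probe of another transcript.

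Values are log2 processed intensities with each array's 75th percentile set to 0, so a difference of 1 is 2-fold. Across probes, the correlation was 0.990 to 0.996 within a group and 0.732 to 0.748 between granulocyte and BES arrays. Probes well above background made up 66.4% to 70.9% of each granulocyte array and 71.6% to 76.1% of each BES array. The interferon-stimulated gene MX1 rose 5.31-fold in granulocytes and 117-fold in BES, which checks the treatment labels. All 9 measured granulocyte markers were well above background on every granulocyte array, whereas of the 6 measured stromal markers, COL1A2, LUM and FN1 were on none of them, DCN was on 3, and COL1A1 and VIM were on all 8. VIM, which leukocytes also express, was at 4.68 and 4.67 in IFNT and PBS granulocytes, and COL1A1 at -4.01 and -5.43. All 6 measured stromal markers were well above background on every BES array, as were the 3 measured epithelial markers, keratin KRT8 among them at a mean log2 level of 7.23 with IFNT and 7.19 with PBS. The granulocyte samples also gave signal for 3 monocyte markers, 6 markers of T and NK cells, and ALOX15, the only eosinophil marker with a probe.

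Of the 94 solute carriers, 56 were well above background on all 14 arrays and 13 on none, among them the liver glucose transporter SLC2A2, the red cell anion exchanger SLC4A1 and the choline transporter SLC5A7. A member was tested in a cell type when it was well above background on at least 4 of the 8 granulocyte arrays or 3 of the 6 BES arrays. That left 60 members tested in both cell types, 3 in granulocytes only, 10 in BES only and 21 in neither. No member was saturated on any array.

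In granulocytes, IFNT changed a broad set of carriers by small amounts, in both directions. The carnitine transporter SLC22A5, the CD98 and LAT1 subunits SLC3A2 and SLC7A5, the fatty acid transport protein SLC27A1 and the glutamine transporters SLC38A5 and SLC38A3 rose. The glycine transporter SLC6A9 fell 2.05-fold, and 4 mitochondrial carriers, 2 hexose transporters and SLC11A1 fell by less. Of 63 members tested, 22 (34.9%) passed the threshold, an adjusted p under 0.05 in limma with Benjamini-Hochberg adjustment over all probes, with 11 higher and 11 lower. Over all 10379 probes tested, 44.6% passed, 17.2% higher and 27.4% lower, so the carriers' share was no higher than that of the array.

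The arrays of the groups did not overlap for 24 of the 63 members (38.1%, against 43.6% of all probes). The median response of the members was 0.02 on the log2 scale, against -0.05 for all probes. Only 2 members, SLC22A5 and SLC6A9, passed with a change of at least 2-fold, which is 3.17% of the members tested and compares with 4.84% of all probes. On the granulocyte slide the IFNT samples filled array row 2 and the PBS samples row 1, so row and treatment cannot be told apart in any of these values.

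Some markers of other blood cells moved with the treatment. The summed signal of the 3 monocyte markers lay between 4.70 and 4.76 (log2) on the IFNT arrays and between 4.80 and 4.93 on the PBS arrays, where CD68 made up most of the sum. The mean level of CD68 was 4.31 with IFNT and 4.67 with PBS, but CD14 was at 2.44 and 1.41 and C1QB at 0.49 and 0.03, so the 3 markers did not move one way. ALOX15 lay between 3.35 and 3.54 with IFNT and between 3.64 and 3.73 with PBS. The summed signal of the granulocyte markers overlapped, at 9.54 to 9.70 with IFNT and 9.49 to 9.84 with PBS, as did those of the 6 T and NK cell markers (1.66 to 1.77, against 1.72 to 1.77) and the 4 platelet and erythroid markers (2.57 to 2.63, against 2.62 to 2.78). The red cell marker HBB was well above background on no array. The part of such cells in the carrier changes was not tested, and in bulk RNA fewer cells of a type cannot be told apart from less RNA per cell.

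**Figure D1:**
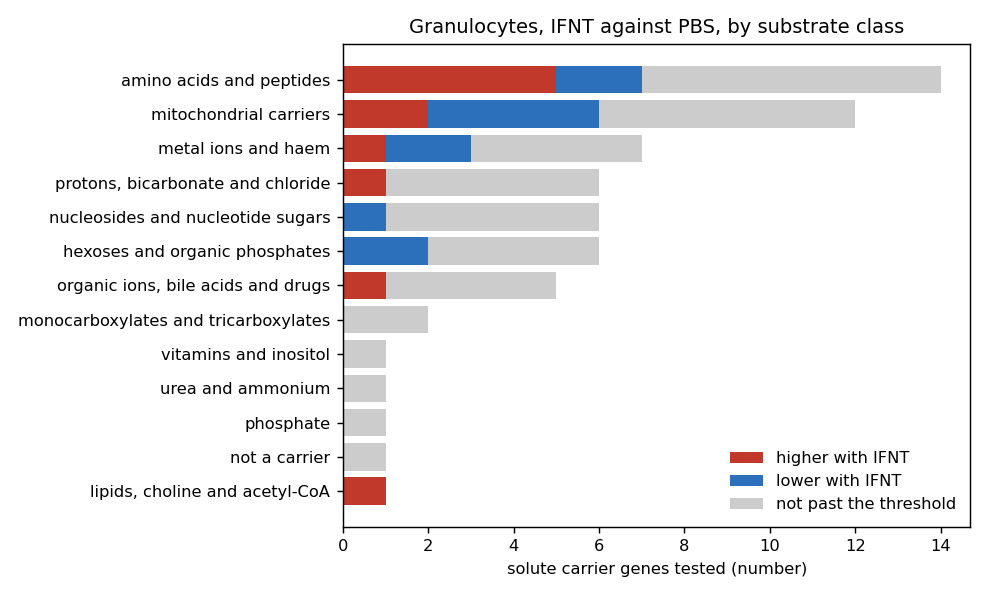
Number of solute carrier genes tested in granulocytes in each substrate class, split into those higher with IFNT, those lower with IFNT and those not past the threshold. The amino acid class holds the most rises, 5 of 14, and the mitochondrial class the most falls, 4 of 12. These classes also had the most members tested. Of all probes tested, 17.2% were higher and 27.4% lower.

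The carrier with the largest rise moves carnitine, the cofactor that brings long-chain fatty acids into mitochondria. SLC22A5 had log2 levels of -2.56, -2.72, -2.74 and -2.70 on the IFNT granulocyte arrays, against -4.12, -3.95, -4.05 and -4.14 on the PBS arrays. Every IFNT array lay above every PBS array by more than the spread within either group. The rise was 2.61-fold (log2 1.38 ± 0.06, SE, n = 4 against 4, limma adjusted p = 4.4e-07) and ranked 260 by size among the 1785 probes that rose. SLC27A1, which takes up long-chain fatty acids, had levels of 0.36, 0.18, 0.05 and 0.23 with IFNT and -0.42, -0.46, -0.73 and -0.36 with PBS. These groups did not overlap either, and the rise was 1.62-fold (0.70 ± 0.09, limma adjusted p = 3.9e-04). SLC25A20, which exchanges carnitine and acylcarnitine at the inner mitochondrial membrane, did not pass, at -0.06 (95% interval -0.15 to 0.03).

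The amino acid and peptide class was set by family number, and it also holds members with other substrates, such as the serotonin transporter SLC6A4. Among its 14 members tested, 5 rose, 2 fell and 7 did not pass, with a median response of 0.14. Of all probes, 17.2% rose and 27.4% fell, and the difference from those shares was not tested. The subunits of the CD98 and LAT1 exchanger rose by similar factors. SLC3A2 had levels of 2.81, 2.76, 2.74 and 2.87 with IFNT, against 1.93, 2.05, 2.15 and 2.07 with PBS, a 1.68-fold rise (0.75 ± 0.06, limma adjusted p = 1.4e-05). SLC7A5 had levels of 4.76, 4.57, 4.54 and 4.80 with IFNT, against 4.02, 4.02, 3.94 and 4.06 with PBS, a 1.58-fold rise (0.66 ± 0.07, limma adjusted p = 9.6e-05). For both genes all IFNT arrays were above all PBS arrays. SLC7A7, another light chain that pairs with SLC3A2 and carries cationic amino acids, did not pass, at -0.01 (95% interval -0.20 to 0.19).

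The system N and A transporters, which carry glutamine and other small neutral amino acids with sodium, did not move as 1 group. SLC38A5 had levels of 0.54, 0.55, 0.50 and 0.56 with IFNT, against -0.05, -0.02, -0.03 and -0.01 with PBS, with an SD of 0.03 and 0.02, and rose by 0.56 ± 0.04 (limma adjusted p = 6.6e-06). SLC38A3, on a dim probe, rose by 0.45 ± 0.10 (limma adjusted p = 0.00502), a call lost with normexp background correction (0.20). SLC38A2, which many cells induce when amino acids are short, did not pass, at -0.13 (95% interval -0.26 to 0.00). The taurine transporter SLC6A6 rose by 0.15 ± 0.05 (limma adjusted p = 0.0419), a call that was lost under 10 of 15 alternative settings.

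The falls in this class were those of a glycine and a glutamine carrier. SLC6A9, the glycine transporter GlyT1, had levels of 3.41, 3.41, 3.30 and 3.33 with IFNT, against 4.53, 4.35, 4.24 and 4.46 with PBS. The groups were far apart, and the level with IFNT was 2.05-fold lower (-1.03 ± 0.07, limma adjusted p = 5.4e-06), rank 88 by size among the 2848 probes that fell. SLC1A5 (ASCT2), which exchanges glutamine and other neutral amino acids, had levels of 0.94, 0.89, 0.69 and 0.99 with IFNT, against 1.31, 1.25, 1.11 and 1.29 with PBS (-0.36 ± 0.08, limma adjusted p = 0.00484). Its highest IFNT array lay below its lowest PBS array.

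**Figure D2:**
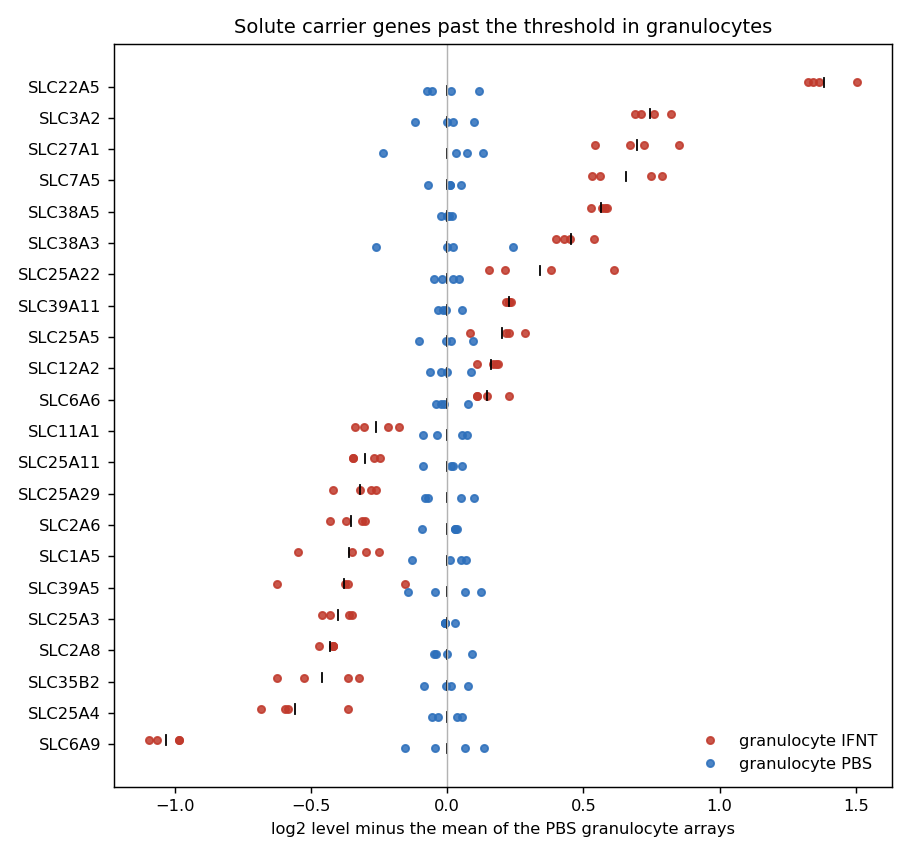
The 22 solute carrier genes past the threshold in granulocytes. Each point is 1 array, as log2 level minus the mean of the 4 PBS arrays, and the black bars are group means. The IFNT and PBS points overlap for SLC25A5 alone, and SLC22A5 and SLC6A9 lie farthest from 0.

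The class called mitochondrial here is the SLC25 family, set by family number and not by the membrane of each member. Among 12 of its members tested, 4 fell, 2 rose and 6 did not pass, a split much like that of all probes (27.4% lower and 17.2% higher). The ADP/ATP carriers, which exchange cytosolic ADP for ATP made in the matrix, differed from one another. SLC25A4 had levels of -2.77, -2.67, -2.68 and -2.45 with IFNT, against -2.14, -2.03, -2.12 and -2.05 with PBS, a 1.47-fold lower level (-0.56 ± 0.07, limma adjusted p = 2.7e-04). SLC25A5, named here after its values were seen, had levels of 2.56, 2.76, 2.70 and 2.69 with IFNT, against 2.49, 2.47, 2.57 and 2.37 with PBS. Its lowest IFNT array lay just under its highest PBS array, and the rise was small (0.20 ± 0.06, limma adjusted p = 0.0307). SLC25A6, also named after its values were seen, did not pass, at 0.05 (95% interval -0.12 to 0.22).

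The phosphate carrier SLC25A3, which supplies ATP synthase with phosphate, had levels of 2.17, 2.18, 2.07 and 2.10 with IFNT, against 2.56, 2.52, 2.52 and 2.52 with PBS. All IFNT arrays were lower (-0.40 ± 0.04, limma adjusted p = 1.0e-04). SLC25A29, a carrier of basic amino acids, fell by 0.32 ± 0.06, and SLC25A11, the oxoglutarate and malate exchanger, by 0.30 ± 0.05. The glutamate carrier SLC25A22 rose by 0.34 ± 0.10 (limma adjusted p = 0.0179), with IFNT levels of -3.74, -3.91, -3.97 and -3.51 against PBS levels of -4.10, -4.14, -4.17 and -4.08, a call also lost with normexp (0.19).

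Of 6 hexose and organic phosphate carriers tested in granulocytes, 2 fell and 4 did not pass. Those that fell sit mostly on intracellular membranes. SLC2A8 (GLUT8) had levels of 0.68, 0.68, 0.63 and 0.68 with IFNT, against 1.19, 1.10, 1.05 and 1.06 with PBS (-0.43 ± 0.05, limma adjusted p = 1.2e-04). SLC2A6 (GLUT6) had levels of 0.65, 0.53, 0.59 and 0.66 with IFNT, against 1.00, 0.99, 0.87 and 0.99 with PBS (-0.35 ± 0.05, limma adjusted p = 6.3e-04). Neither gene's groups overlapped.

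The glucose transporters of the plasma membrane were near the threshold without passing it. SLC2A1 (GLUT1) had levels of 2.81, 2.82, 2.74 and 2.82 with IFNT, against 2.80, 3.11, 2.98 and 3.15 with PBS, a difference of -0.21 (95% interval -0.39 to -0.03, limma adjusted p = 0.0555). SLC2A3 (GLUT3) had levels of -1.01, -0.81, -0.88 and -0.82 with IFNT, against -1.43, -1.07, -1.41 and -0.93 with PBS, a difference of 0.33 (95% interval 0.05 to 0.60, limma adjusted p = 0.0531). The arrays of the groups overlapped for both genes. Under 15 alternative settings, SLC2A1 passed in 2 and SLC2A3 in 4.

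Of 7 metal carriers, 1 rose, 2 fell and 4 did not pass. SLC11A1 (NRAMP1), which exports divalent metals from the phagosome, had levels of 3.82, 3.73, 3.70 and 3.86 with IFNT, against 4.00, 4.09, 3.95 and 4.11 with PBS. Each IFNT array was lower than each PBS array, by a small margin (-0.26 ± 0.06, limma adjusted p = 0.00598), and the call was lost with all 14 arrays in 1 fit. The zinc transporter SLC39A11 rose by 0.22 ± 0.04 (limma adjusted p = 0.00186). The zinc transporter SLC39A5, a dim probe with levels of -4.42 to -4.63 under PBS, fell by 0.38 ± 0.10 (limma adjusted p = 0.0165), a call lost with normexp (-0.17).

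SLC35B2, which brings the sulfate donor PAPS into the Golgi, was the only member to pass among 6 carriers of nucleosides and nucleotide sugars. Its levels were 4.32, 4.02, 4.12 and 4.28 with IFNT, against 4.72, 4.66, 4.56 and 4.64 with PBS (-0.46 ± 0.07, limma adjusted p = 0.00117). Among 6 carriers of protons, bicarbonate and chloride, the sodium, potassium and chloride cotransporter SLC12A2 rose by 0.17 ± 0.05 (limma adjusted p = 0.021), with no overlap of the groups, a call lost without any 1 of 4 of the arrays. Among 5 carriers of organic ions and bile acids, SLC22A5 alone passed. No member passed among the monocarboxylate, phosphate, urea, and vitamin and inositol carriers, of which 5 were tested.

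**Figure D3:**
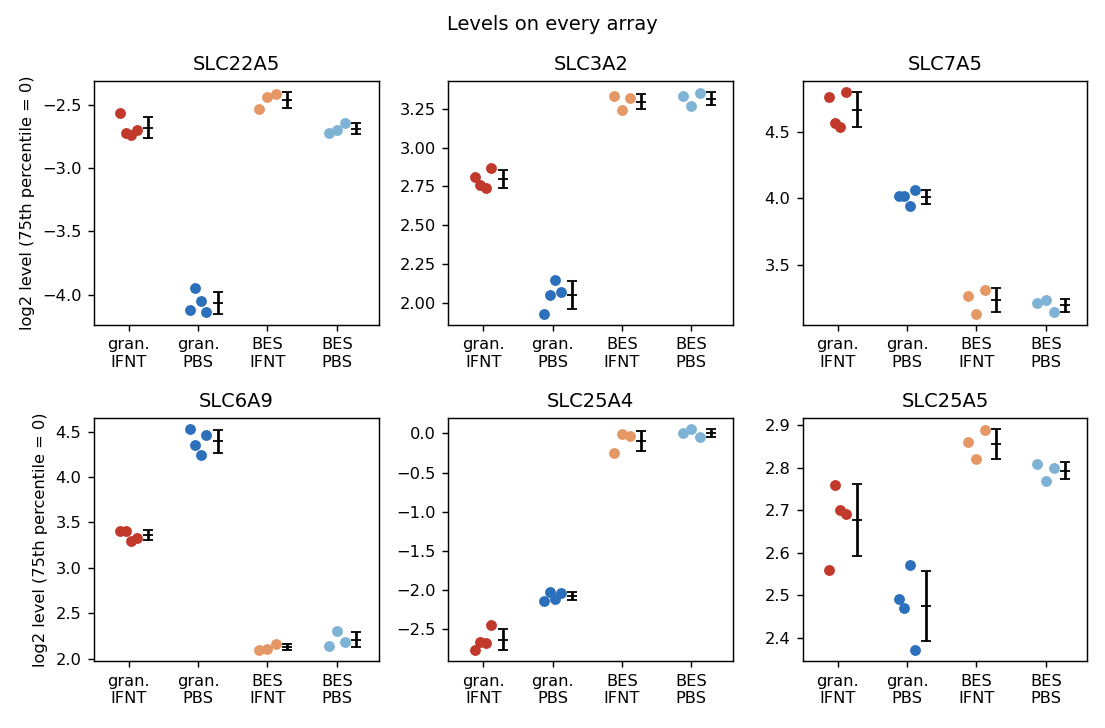
Log2 levels of 6 solute carrier genes on every array, by group, with the 75th percentile of each array at 0 and a separate vertical axis for each gene. Points are arrays, and the bars beside them show the mean and SD (n = 4 granulocyte and 3 BES arrays a group). Treatment separates the granulocyte groups of SLC22A5, SLC3A2, SLC7A5, SLC6A9 and SLC25A4, whereas the SLC25A5 groups overlap.

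Transport genes outside the SLC series were read for comparison, from 6 lists of pumps, channels and carrier partners. Of their 26 members tested in granulocytes, 2 rose and 9 fell (42.3%, against 44.6% of all probes). The vacuolar proton pump, which acidifies lysosomes and phagosomes, had 5 falls and no rise among 9 subunits, where 27.4% of all probes fell; the difference from that share was not tested. Subunit ATP6V1C1 fell 1.65-fold (-0.72 ± 0.05, limma adjusted p = 1.0e-05), ATP6V0B differed by -0.33 ± 0.07 and ATP6V1H by -0.24 ± 0.04, both past the threshold. Among 6 P-type pumps, the calcium pump ATP2B1 fell by 0.39 ± 0.05. Of 7 ABC proteins, ABCF1 and ABCF2, which act in translation rather than transport, also fell (-0.36 ± 0.06 and -0.22 ± 0.08). The iron storage subunit FTH1 fell by 0.31 ± 0.07. No organic anion transporting polypeptide passed (1 tested), and no aquaporin was bright enough to be tested.

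In BES, the same treatment left nearly all carriers short of the threshold, although MX1 rose 117-fold there. Of 70 members tested, 1 passed (1.43%), against 3.66% of all 11309 probes (2.29% higher and 1.37% lower). An unadjusted limma p under 0.05 held for 22 members, but the share of all probes at that cut is not given here, so nothing is read from it. The member that passed the threshold was SLC25A1, which exports citrate from mitochondria for lipid synthesis. Its levels were 0.94, 0.95 and 0.86 with IFNT, against 1.45, 1.54 and 1.22 with PBS. All IFNT arrays were lower (-0.49 ± 0.09, n = 3 against 3, limma adjusted p = 0.0396), a call lost with array row as a covariate (-0.31) and without any 1 of 5 of the arrays. The count of 1 became 0 to 8 under other settings, with 3 when PBS sample 3 was left out. Of the BES arrays, those in row 2 of the slide were all IFNT samples plus PBS sample 3.

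Counting SLC25A1, 49 of the 70 members had a response below 0 in BES (70.0%, against 56.0% of all probes), and the median was -0.10, against -0.02 for all probes. The groups did not overlap for 26 members (37.1%, against 33.5% of all probes). The mitochondrial ATP-magnesium and phosphate carrier SLC25A25 differed by -0.51 (95% interval -0.83 to -0.20, limma adjusted p = 0.0867), and SLC22A5, the carnitine transporter, by 0.23 (95% interval 0.10 to 0.35, limma adjusted p = 0.0686). Under 14 alternative settings, SLC25A25 passed in 4 and SLC22A5 in 1. SLC3A2 was at -0.02 (95% interval -0.14 to 0.10) and SLC7A5 at 0.04 (95% interval -0.11 to 0.19). Of the transport genes outside the SLC series, 1 of 28 passed in BES, the pump subunit ATP6V0A1 (-0.31 ± 0.04, limma adjusted p = 0.0183).

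The difference between the responses, granulocytes minus BES, was tested in 1 fit over all 14 arrays. It passed for 18 of 73 members (24.7%, against 26.5% of 12046 probes), with 11 more positive and 7 more negative in granulocytes. Of these 18, 16 were well above background on every array and 13 had also passed in granulocytes alone. Granulocytes filled 1 slide and BES another, so the slide cannot be told apart from the cell type.

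SLC22A5 responded at 1.38 in granulocytes and 0.23 in BES, a difference of 1.16 ± 0.08 (limma adjusted p = 9.5e-07; 0.73 with normexp). For SLC27A1 the responses were 0.70 and -0.15 (difference 0.85 ± 0.12, limma adjusted p = 2.7e-04). The exchanger subunits differed too, SLC3A2 by 0.76 ± 0.08 and SLC7A5 by 0.62 ± 0.10 (0.39 with quantile normalization), as did SLC38A5 by 0.60 ± 0.05. Their granulocyte responses thus exceeded the BES ones beyond the replicate error.

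In the other direction, the glycine transporter SLC6A9 responded at -1.03 in granulocytes and -0.08 in BES (difference -0.95 ± 0.10, limma adjusted p = 1.4e-05). The ADP/ATP carrier SLC25A4 differed by -0.45 ± 0.11, the hexose carriers SLC2A6 and SLC2A8 by -0.38 ± 0.08 and -0.32 ± 0.06, and the phosphate carrier SLC25A3 by -0.26 ± 0.07. SLC38A2 passed although it had passed in neither cell type, with responses of -0.13 in granulocytes and 0.22 in BES (difference -0.35 ± 0.09, limma adjusted p = 0.0101). So did the lactate carrier SLC16A1 (0.37 ± 0.11) and SLC25A25 (0.54 ± 0.14). The phagosomal SLC11A1 and the peptide transporter SLC15A1 also passed, but SLC11A1 was well above background on only 2 IFNT and no PBS array of BES, and SLC15A1 on only 2 IFNT and no PBS array of granulocytes. Their differences rest on dim signals, mostly not well above background, in 1 cell type, so no size or direction is read from them. The call of SLC11A1 was also lost with the replicate number as a block, and that of SLC15A1 with normexp.

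**Figure D4:**
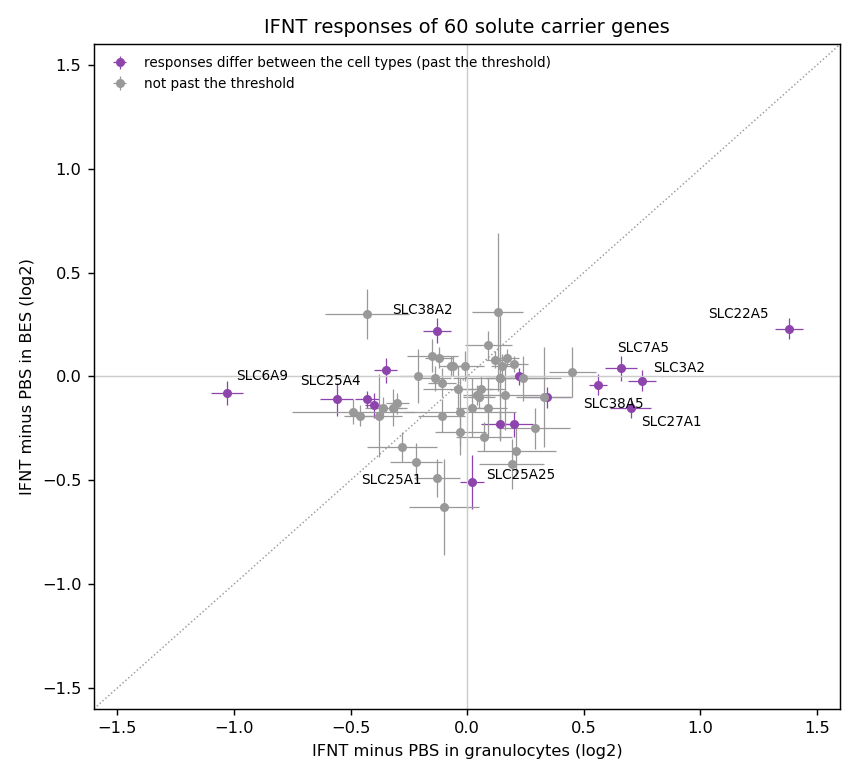
IFNT response (log2 IFNT minus PBS) of the 60 solute carrier genes tested in both cell types, granulocytes on the horizontal and BES on the vertical axis, with SE bars. On the dotted line responses would be equal. Genes whose responses differed past the threshold are purple. SLC22A5 and SLC6A9 lie far out along the granulocyte axis, and no gene lies as far out along the BES axis.

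Under PBS, carrier levels differed widely between the cell types. Granulocytes had higher levels of the glucose transporters SLC2A1 and SLC2A3, the phagosomal SLC11A1, the cationic amino acid subunit SLC7A7, the inositol transporter SLC5A3 and the taurine transporter SLC6A6. They had lower levels of the mitochondrial carriers SLC25A21, SLC25A22 and SLC25A1, the urea transporter SLC14A1 and the zinc transporter SLC39A11. Of 72 members tested, 65 passed (90.3%), 35 higher and 30 lower in granulocytes, against 91.4% of 11805 probes (46.7% higher and 44.7% lower). The arrays of the cell types did not overlap for these same 65 of the 72 members (90.3%, against 91.0% of all probes). These PBS arrays are the same ones that serve as controls for the IFNT responses, and here too the slide cannot be told apart from the cell type. Other scalings moved the median over all probes from 0.03 to 0.46 (normexp background correction) or -0.21 (quantile normalization), so small differences have no secure direction.

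SLC2A1 had levels of 2.80, 3.11, 2.98 and 3.15 in PBS granulocytes, against -3.94, -3.71 and -4.18 in PBS BES. The level in granulocytes was thus 124-fold higher (6.95 ± 0.13, n = 4 against 3, limma adjusted p = 2.9e-09), and this probe was well above background on every array. SLC2A3 was 68.7-fold higher (6.10 ± 0.18, and 4.04 with normexp), with 2 of the 3 PBS BES arrays well above background. In contrast, SLC2A4, the insulin-responsive glucose transporter, and SLC5A2, a sodium-coupled one, were well above background on no PBS granulocyte array, and were at least 1.27-fold and at least 5.98-fold lower in granulocytes. The fitted difference of SLC5A2, -3.77, became -1.10 with normexp, a smaller fold than its bound, so its size is not settled.

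SLC11A1 had levels of 4.00, 4.09, 3.95 and 4.11 in PBS granulocytes and was well above background on no PBS BES array. Against the lowest signal that each BES array called well above background, it was at least 2920-fold higher in the main processing (limma adjusted p = 3.7e-09). The fitted log2 difference of SLC11A1, 12.66, ran down to 9.3 under other settings, a smaller fold than that bound. SLC10A1, known as the bile acid carrier of the liver, was at least 35.6-fold higher in granulocytes on the same reckoning, with levels of -2.66, -1.66, -2.85 and -2.11 there. The fitted difference of SLC10A1, 6.94, became 3.43 with normexp, a smaller fold than its bound. Its probe was designed on an expressed sequence tag and matched RefSeq by symbol alone. The same was true of the probes of SLC3A2, SLC27A1, SLC25A29, SLC35B2 and SLC39A11, among others. The symbol of SLC22A5 came from a description as similar to the named gene. In all, 7 members tested had no PBS array well above background in 1 cell type.

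Several members of the amino acid and peptide class stood apart between the cell types. SLC7A7 was 48.1-fold higher in granulocytes (5.59 ± 0.10), and SLC6A6 20.7-fold higher (4.37 ± 0.06), with levels of 0.00, -0.09, -0.10 and -0.12 against -4.37, -4.48 and -4.49 in BES. The serotonin transporter SLC6A4, which platelets also use, was 15.4-fold higher (3.94 ± 0.11, and 2.41 with normexp), with 2 of 3 PBS BES arrays well above background. The integrin ITGA2B, a platelet marker, had a mean level of 1.30 in PBS granulocytes and -5.28 in PBS BES, and its part in the SLC6A4 difference was not tested. The glutamine carrier SLC1A5 was 6.55-fold lower in granulocytes (-2.71 ± 0.07), and the cystine carrier subunit SLC3A1 6.37-fold lower (-2.67 ± 0.14). SLC5A3, the inositol transporter, was also higher in granulocytes (4.81 ± 0.07, and 2.78 with normexp), with 2 of 3 PBS BES arrays well above background.

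Of 13 members of the SLC25 family, classed as mitochondrial by family number, 3 were higher and 8 lower in granulocytes. Their median difference was -0.77, against 0.03 for all probes. SLC25A22 had levels of -4.10, -4.14, -4.17 and -4.08 in PBS granulocytes, against 0.11, 0.24 and 0.19 in PBS BES, 19.8-fold lower (-4.31 ± 0.06, limma adjusted p = 5.8e-10). SLC25A1, the citrate carrier, was 9.83-fold lower (-3.30 ± 0.12). SLC25A21, the oxodicarboxylate carrier, differed by -6.19 ± 0.70 (-2.94 with normexp), but only 1 of the 4 PBS granulocyte arrays was well above background. SLC25A3 and SLC25A11 did not pass, at 0.05 (95% interval -0.09 to 0.18) and -0.10 (95% interval -0.24 to 0.04).

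Among the remaining classes, SLC14A1, the urea transporter known from red cells and kidney, had levels of -4.58, -4.76, -4.84 and -4.43 in PBS granulocytes, against -0.82, -0.64 and -0.79 in PBS BES, 14.9-fold lower (-3.90 ± 0.11, limma adjusted p = 2.2e-08). SLC39A11 was 11.5-fold lower in granulocytes (-3.52 ± 0.05). The transport genes outside the SLC series gave a like share, with 14 higher and 11 lower of 27 tested (92.6%).

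**Figure D5:**
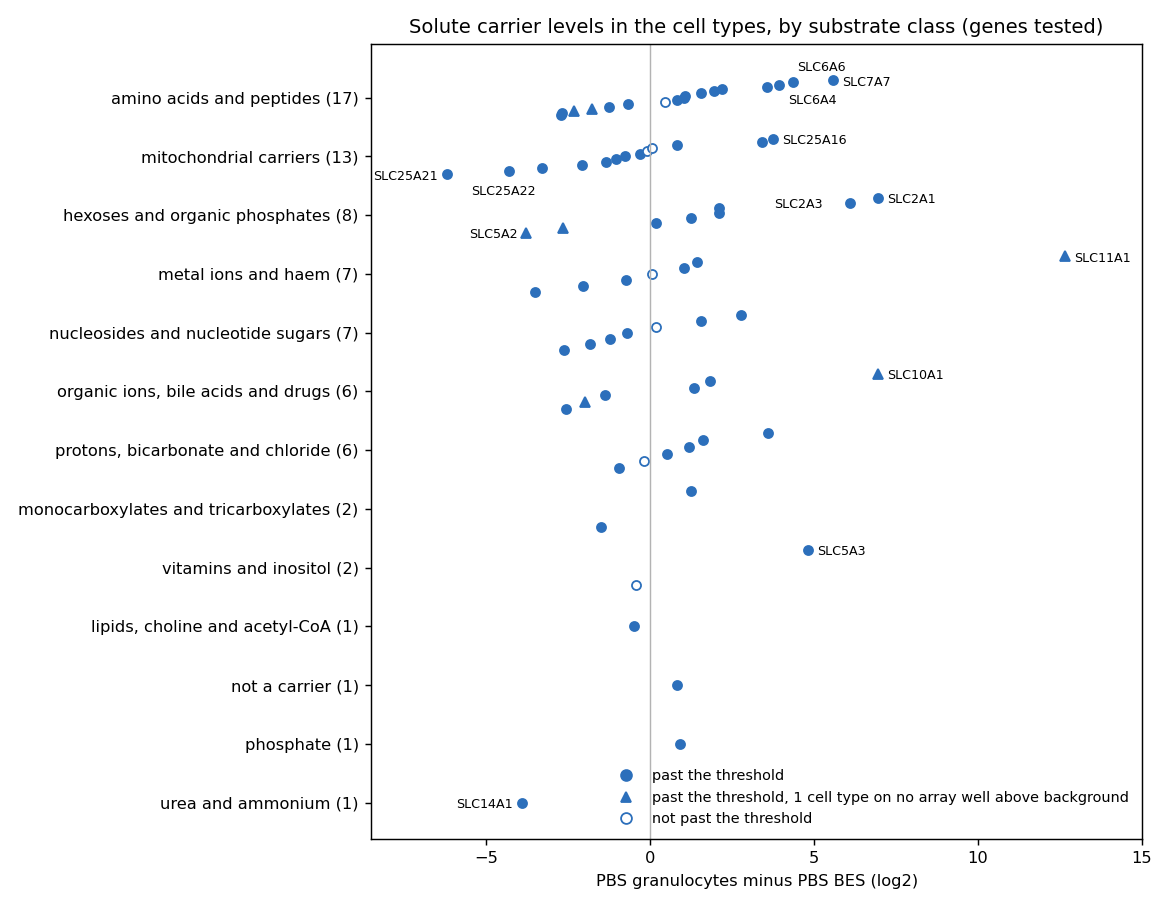
Log2 difference between PBS granulocytes (n = 4 arrays) and PBS BES (n = 3 arrays) for the 72 solute carrier genes tested, by substrate class, with the number tested in brackets. Filled symbols passed the threshold, and triangles mark genes with no array well above background in 1 cell type. SLC11A1, SLC2A1, SLC10A1 and SLC2A3 lie farthest to the right, and SLC25A21 farthest to the left.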

How the data were processed

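Each sample's deposited file holds spot intensity made with Agilent Feature Extraction 9.5, per the file headers and the submitters' processing notes. The processed intensity was corrected by that software for background and spatial trend, and a spot at background received a substitute value. The authors also deposited a table of log2 values, in which each column was that array's log2 processed intensity minus 1 constant, with no centring of genes. It served as an alternative. No genome build is given in the sources used here, so no position is printed.

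Processed intensities were taken to log2 and each array's 75th percentile over the 15208 non-control probes was subtracted; 536 control spots and spots marked as non-uniform or outliers were left out. Probes had to be well above background on 4 of 8 granulocyte arrays, 3 of 6 BES arrays, 3 of 7 PBS arrays between cell types, or either cell type's number for the difference of responses. The comparisons used limma 3.58.1 under R 4.3.3 (two-sided moderated test, Benjamini-Hochberg over all probes, threshold 0.05), which was tested on simulated data first. A lower bound on a fold used the lowest signal well above background on each array, and it holds for the main processing only. The number of arrays limits the precision. Symbols matched the RefSeq table of ARS-UCD2.0 by accession for 46 members, by gene number for 21, by symbol alone for 26 and by synonym for 1.

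The members, substrate classes and lists were chosen with earlier results of these data known. Substrate classes followed the SLC family number, so a class can hold members that carry other substrates or sit in other membranes. Named genes were, per comparison, the largest changes past the threshold whose arrays did not overlap, 5 carriers of wide interest (SLC11A1, SLC2A1, SLC2A3, SLC3A2, SLC7A5) whatever their test gave, and the smallest p-values of each class. The tests were unpaired, since the labels do not say whether replicate numbers pair the arrays. Same-numbered deviations correlated at -0.157 to 0.245 in granulocytes and 0.0272 to 0.200 in BES, and so few arrays cannot settle whether they are paired. Alternatives were background correction, normalization, the filter, the variance prior, array row, a replicate block, all arrays in 1 fit, the authors' table and leaving out each array. The counts cover some genes whose own values are not reported here.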

Additional observations from a re-analysis of the deposited data

Results flagged for a closer look

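In 8 of the 100 groups of 4 granulocyte arrays examined, 1 array stood far from the others, where chance gives about 1 in 20. These were SLC25A3 on PBS array 1 (2.56), SLC2A1 on IFNT array 3 (2.74), SLC2A6 on PBS array 3 (0.87), SLC2A8 on IFNT array 3 (0.63), SLC34A1 on IFNT array 3 (-4.08), SLC37A2 on PBS array 3 (-1.17), SLC39A7 on PBS array 3 (0.12) and SLC7A7 on IFNT array 2 (3.83). The zinc transporter SLC39A7 was at 0.12 on PBS array 3 against a median of 1.05 for its group, and SLC37A2 at -1.17 on the same array against a median of -0.51.

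The test of the difference between the responses, granulocytes minus BES, passed for SLC22A5 (1.16), SLC27A1 (0.85), SLC3A2 (0.76), SLC7A5 (0.62) and SLC38A5 (0.60), and for SLC6A9 (-0.95), SLC25A4 (-0.45), SLC2A6 (-0.38), SLC38A2 (-0.35) and SLC2A8 (-0.32). It also passed for SLC15A1 (fitted 1.08) and SLC11A1 (fitted -1.39). These fitted values rest on dim signals in 1 cell type, mostly not well above background.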

How the results depend on the processing

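The number of carriers past the threshold in granulocytes ran from 19 to 25 under the alternatives, also when each array was left out. The difference of responses gave 16 to 21 and the comparison of cell types 64 to 67, except 84 (54 higher, 30 lower) with no filter on dim probes. The BES count depended on the setting: it was 2 with all 14 arrays in 1 fit, 0 with array row as a covariate, 8 (7 of them lower) with an intensity trend and robust prior, 0 with no filter and 4 with normexp correction. Leaving out each BES array gave 0 to 3, with 3 without PBS array 3, 1 without IFNT array 2 and 0 without any of the others. With the replicate number as a block, BES gave 3, granulocytes 22, the difference 19 and the cell types 66. Whether the numbers pair the arrays is not known, and same-numbered arrays were not always each other's best match. The cause was not tested.

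Of 1349 alternatives to 88 values of named carriers, 1272 kept direction and side of the threshold, 28 lost a call, 29 gained one and 20 changed sign, all of values not past the threshold. With array row as a covariate, the BES differences became 0.03 for SLC14A1, 0.24 for SLC2A1, 0.16 for SLC2A3 and 0.10 for SLC39A1. Quantile normalization gave 0.01 for SLC2A1 and 0.04 for SLC3A2 in BES, normexp 0.01 for SLC2A3, and the authors' values 0.00 for SLC2A1. Leaving out arrays gave BES ranges of -0.08 to 0.10 for SLC14A1, -0.12 to 0.12 for SLC2A1, -0.26 to 0.14 for SLC2A3, -0.04 to 0.01 for SLC3A2 and 0.00 to 0.09 for SLC7A5, and granulocyte ranges of -0.12 to 0.05 for SLC34A1 and 0.00 to 0.08 for SLC9A3R1. SLC25A1 in BES lost its call under 7 of 14 alternatives, SLC12A2 in granulocytes without any 1 of 4 arrays, SLC22A5 under none. An alternative moved a called value of a named carrier by over 1.5 times in 14 cases, 12 of them normexp, which also took the calls of SLC25A22, SLC38A3 and SLC39A5 in granulocytes, and the fit of all 14 arrays those of SLC39A5 and SLC11A1. Reading 3 further probes with clone names as members, chosen after seeing the data, gave 23, 1, 19 and 67 calls in granulocytes, BES, the difference and the cell types.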
